A study of Homo sapiens with 4 samples.

Results

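The 10 genes described here encode 7 membrane-anchored transcription factors of the bZIP type (ATF6, ATF6B, CREB3, CREB3L1, CREB3L2, CREB3L3 and CREB3L4) and the 3 KDEL receptors (KDELR1, KDELR2 and KDELR3). They were chosen by name and all were found among the 32479 genes measured. RNA was sequenced from 2 human liver cancer lines: HepG2, which came from a hepatoblastoma, and PLC/PRF/5, a hepatoma line with hepatitis B virus DNA in its genome. Each of them, labelled as wild type, was either left untreated and collected at 24 h or given 20 uM PF-429242, an inhibitor of site-1 protease, for 24 h. No vehicle is named for the controls, and all 4 groups hold 1 library, so nothing here has a replicate check and no SD can be given. All 8 hepatocyte and hepatoma markers examined (ALB, AFP, APOA1, APOB, TTR, TF, HNF4A and SERPINA1) were at 1 FPKM or more in all 4 libraries. Of 5 fibroblast markers 4 were among the deposited genes, and their summed level was at most 0.406 FPKM.

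Site-1 protease is a Golgi enzyme that makes the first cut in proteins held in the membrane of the endoplasmic reticulum (ER). ATF6 is kept in the ER while protein folding keeps pace, travels to the Golgi when unfolded protein builds up, and is cut there by site-1 and then site-2 protease, which frees its DNA-binding part to enter the nucleus. The CREB3 family is built and cut in a similar way. KDEL receptors sit mainly in the Golgi, bind chaperones that end in the amino acids KDEL or a close variant, and carry them back to the ER in COPI-coated vesicles. In liver cells, which secrete much protein, ATF6 and its partner XBP1 raise chaperone transcripts, and KDELR2 and KDELR3 are themselves known to be induced by ER stress.

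Because ATF6 reads a DNA element in front of chaperone genes, promoters are shown first. The ER stress response element (ERSE) is CCAAT, 9 bases of any kind, then CCACG. RefSeq promoter windows on GRCh38.p14, 250 bases before to 50 after each gene's start, were searched on both strands with overlaps allowed. A full ERSE was present in 22 of 27305 windows (0.0806%). Among 15 known ATF6 target genes it was present in 5, which were CALR, CRELD2, HSP90B1, HSPA5 and XBP1. The sites of HSPA5, HSP90B1 and CALR are printed as the reference for what a full element looks like, read 5′ to 3′ in the direction of the element, with the 2 fixed blocks in capitals.
HSPA5, chr9:125241391-125241409, minus strand: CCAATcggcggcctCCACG
HSP90B1, chr12:103930216-103930234, plus strand: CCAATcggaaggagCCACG
HSP90B1, chr12:103930321-103930339, minus strand: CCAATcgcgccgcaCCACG
CALR, chr19:12938384-12938402, minus strand: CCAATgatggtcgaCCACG

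None of the 9 members with a promoter entry held a full ERSE, and none held ERSE-II (ATTGG, 1 base of any kind and CCACG, in 15 windows or 0.0549% of all). KDELR2 was the member with no entry. The windows of CREB3, CREB3L1 and CREB3L4 lay wholly inside the annotated gene, whose start comes before the RefSeq start. Sequence in front of these annotated genes was therefore not searched. The half-site CCACG, which is also a part of ERSE and ERSE-II, was present in 5 of the 9 (CREB3, CREB3L2, CREB3L4, KDELR1 and KDELR3), against 37.9% of all windows. The half-sites of CREB3 and CREB3L4 are thus within the annotated gene. KDELR3 also held the core TGACGTG, read by ATF6 and XBP1 and present in 2.00% of windows. It lay on the minus strand from 45 to 39 bases before the start and overlapped a CCACG from 46 to 42 bases before it. CREB3L2 held the cyclic AMP response element TGACGTCA, the palindrome bound by CREB-type bZIP factors, 179 to 172 bases before its start; 1.98% of windows held it. These matches describe letters in the windows and are not evidence of binding. The parts of the windows outside the annotated gene are printed for both receptor genes with an entry and for CREB3L2, the member that was not lower in either treated library. Each reads 5′ to 3′ along the gene's strand, with the half-site, the TGACGTG core and the cyclic AMP response element, in either direction, in capitals.
KDELR1, chr19:48391554-48391801, minus strand: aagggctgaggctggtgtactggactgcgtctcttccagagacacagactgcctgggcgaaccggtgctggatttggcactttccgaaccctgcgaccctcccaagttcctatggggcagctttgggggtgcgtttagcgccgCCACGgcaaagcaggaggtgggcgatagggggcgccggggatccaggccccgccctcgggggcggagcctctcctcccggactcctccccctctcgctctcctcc
KDELR3, chr22:38467846-38468061, plus strand: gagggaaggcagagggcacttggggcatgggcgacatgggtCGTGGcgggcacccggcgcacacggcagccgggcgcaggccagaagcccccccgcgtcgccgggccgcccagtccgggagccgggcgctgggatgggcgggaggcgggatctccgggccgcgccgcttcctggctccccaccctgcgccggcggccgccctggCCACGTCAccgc
CREB3L2, chr7:138002087-138002336, minus strand: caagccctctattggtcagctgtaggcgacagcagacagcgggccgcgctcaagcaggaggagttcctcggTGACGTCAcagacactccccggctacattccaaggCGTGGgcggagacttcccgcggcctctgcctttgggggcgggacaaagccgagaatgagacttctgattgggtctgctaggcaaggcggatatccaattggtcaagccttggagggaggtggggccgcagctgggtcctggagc

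Levels were compared in FPKM, the fragments per kilobase of gene scaled to all fragments counted in the library, so that genes can be set beside each other per length. Recovered from the FPKM values, the HepG2 libraries held 16722204 fragments (control) and 20350701 (treated), and the PLC/PRF/5 libraries 21387301 (control) and 16982560 (treated). Intervals in brackets are 95% intervals of the fragment counts (exact Clopper-Pearson for ratios). They hold counting error alone, so they compare single libraries and not conditions. Fragments of the mitochondrial genome made up 16.6% and 21.3% of the controls of HepG2 and PLC/PRF/5, and 27.6% and 28.2% of their treated libraries. The treated PLC/PRF/5 library stood apart in 8 RRP genes of ribosomal RNA processing, at 0.0719 to 0.146 of the control, against 0.705 to 1.05 in HepG2. The median gene itself was lower after treatment, by a log2 ratio of (FPKM + 1) of -0.17 in HepG2 and -0.13 in PLC/PRF/5. Scaling by the median of ratios moved log2 ratios up by 0.21 and 0.16, and totals over nuclear genes alone moved them up by 0.20 and 0.13.

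RNA came from bulk cultures, in which fewer cells with a transcript and less of it per cell cannot be told apart. Of the bZIP factors, CREB3L2 led in HepG2 and CREB3 led in PLC/PRF/5. In the HepG2 control CREB3L2 made up 45.0% of the summed FPKM of the 7 factors (67.5 FPKM), and in the PLC/PRF/5 control CREB3 made up 46.1% of 107 FPKM. Behind the leader in the HepG2 control came CREB3, ATF6B, CREB3L3 and ATF6, from 10.9 to 7.19 FPKM, each with a counting interval that overlapped that of the next. In the PLC/PRF/5 control CREB3L2, ATF6B and CREB3L3 followed at 16.0, 15.6 and 14.2 FPKM with overlapping intervals, and ATF6 stood clear of them at 8.67 FPKM. CREB3L4 and CREB3L1 came last in all 4 libraries. Among the receptors the order was KDELR1, KDELR2, KDELR3 in each library, with no overlap of the intervals. KDELR1 held 55.8% to 62.0% of the summed receptor FPKM and KDELR3 2.42% to 4.47%.

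**Figure D1:**
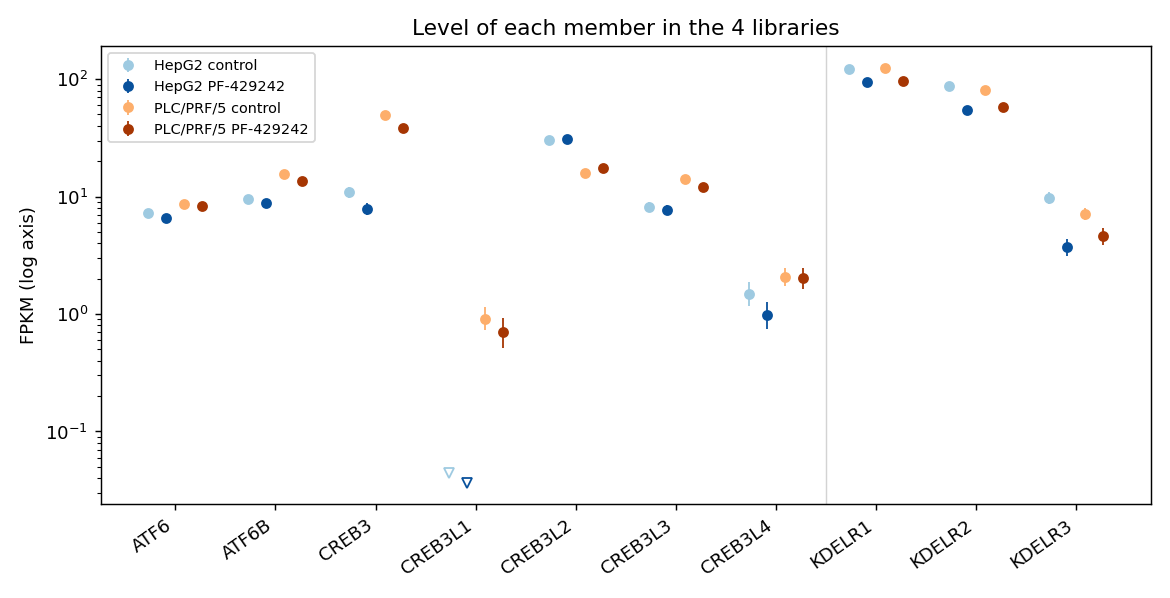
FPKM of each member (log axis) in the 4 libraries, 1 point per library, with exact Poisson 95% counting intervals; open triangles mark the level of 3 fragments where 0 were counted. CREB3L2 is the highest bZIP factor in HepG2 and CREB3 in PLC/PRF/5, and KDELR1 lies at 94.8 to 124 FPKM in all 4.

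ATF6 (ENSG00000118217, chr1:161766294-161964070, plus strand), the best-known stress sensor of the family, differed little between libraries. It was at 7.19 FPKM in the HepG2 control and 6.51 FPKM in treated HepG2, and at 8.67 FPKM in the PLC/PRF/5 control and 8.39 FPKM in the treated library. The ratios of treated to control were 0.905 (0.828 to 0.989) in HepG2 and 0.968 (0.895 to 1.05) in PLC/PRF/5. After median-of-ratios scaling both were above 1, at 1.04 and 1.08, with intervals that included 1. The log2 ratio of ATF6 in HepG2, -0.13, lay above that of the median gene, and 61.3% of measured genes had a lower one.

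ATF6B (ENSG00000213676, chr6:32115264-32128253, minus strand), the close relative of ATF6, was at 9.46 FPKM in the HepG2 control and 8.81 FPKM in the treated library. In PLC/PRF/5 it was at 15.6 FPKM in the control and 13.5 FPKM after treatment. The ratios were 0.932 (0.832 to 1.04) and 0.865 (0.791 to 0.946), so only the PLC/PRF/5 interval lay below 1. With median-of-ratios scaling they became 1.08 and 0.966, and both intervals included 1. ATF6B shares 9.92% of its exon bases with TNXB and AL662884.2 on the same strand, so part of its fragments may belong to them.

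CREB3 (ENSG00000107175, chr9:35732335-35737004, plus strand), also called Luman, is the founding member of the CREB3 family. It was at 10.9 FPKM in the HepG2 control and 7.84 FPKM in treated HepG2, and at 49.2 FPKM in the PLC/PRF/5 control and 38.3 FPKM in the treated library. The counting intervals of the lines' single libraries did not overlap in either condition. The ratio was 0.722 (0.609 to 0.856) in HepG2 and 0.780 (0.721 to 0.842) in PLC/PRF/5. CREB3 was the only bZIP factor whose interval stayed below 1 in both lines with median-of-ratios scaling, at 0.833 (0.703 to 0.987) and 0.870 (0.805 to 0.940). It shares 10.5% of its exon bases with GBA2 and TLN1 on the opposite strand, and no source used here says if the libraries were stranded.

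CREB3L2 (ENSG00000182158, chr7:137874979-138002067, minus strand), also called BBF2H7 and known for driving SEC23A in secreting cells, was the exception among the members. It was at 30.4 FPKM in the HepG2 control and 30.8 FPKM in the treated library, and at 16.0 FPKM and 17.6 FPKM in PLC/PRF/5. The treated libraries were level with the control in HepG2 and higher in PLC/PRF/5, with ratios of 1.02 (0.976 to 1.06) and 1.10 (1.05 to 1.16). With median-of-ratios scaling both intervals lay above 1, at 1.17 (1.13 to 1.22) and 1.23 (1.17 to 1.30). On the TPM scale, which lowers all treated values, its log2 ratio was below 0 in both lines.

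CREB3L3 (ENSG00000060566, chr19:4153601-4173054, plus strand), or CREBH, is the family member known for its role in liver and intestine, where it drives genes of the acute phase and of lipid use. It was at 8.18 FPKM in the HepG2 control and 7.70 FPKM in the treated library, with a ratio of 0.942 (0.816 to 1.09). In PLC/PRF/5 it was at 14.2 FPKM and 12.0 FPKM, with a ratio of 0.844 (0.755 to 0.942). With median-of-ratios scaling the intervals of both lines included 1, at 1.09 and 0.942.

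CREB3L4 and CREB3L1 were the scarce members. CREB3L4 (ENSG00000143578, chr1:153967534-153974363, plus strand), best known from prostate, was at 1.48 FPKM without and 0.982 FPKM with treatment in HepG2, and at 2.06 FPKM without and 2.01 FPKM with it in PLC/PRF/5. Its ratios were 0.662 (0.460 to 0.949) and 0.974 (0.742 to 1.28), resting on 58 to 128 fragments a library, and 12.9% of its exon bases overlap JTB and SLC39A1 on the opposite strand. CREB3L1 (ENSG00000157613, chr11:46277661-46321422, plus strand), or OASIS, known from bone and astrocytes, had 0 fragments in both HepG2 libraries. A count of 3 fragments would be 0.0444 FPKM in the control and 0.0365 FPKM in the treated library. The 95% upper limits for 0 fragments were 0.0546 and 0.0449 FPKM. In PLC/PRF/5 it had 79 fragments in the control and 48 in the treated library, or 0.915 and 0.700 FPKM, with a ratio of 0.765 (0.523 to 1.11). CREB3L1 never reached 1 FPKM and so was left out of the counts of members below. Its level in the PLC/PRF/5 control was 20.6-fold that of the floor of 3 fragments in the HepG2 control. With counting error in both libraries, the ratio of HepG2 control to PLC/PRF/5 control had a 95% upper limit of 0.0611.

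The 3 receptor transcripts were lower after treatment in both lines. KDELR1 (ENSG00000105438, chr19:48382570-48391553, minus strand), the most abundant, was at 122 FPKM in the HepG2 control and 94.8 FPKM in treated HepG2, and at 124 FPKM in the PLC/PRF/5 control and 96.6 FPKM in the treated library. Both treated libraries lay below both controls. The ratios were nearly equal, at 0.778 (0.746 to 0.812) in HepG2 and 0.777 (0.745 to 0.810) in PLC/PRF/5. With median-of-ratios scaling they were 0.898 (0.861 to 0.936) and 0.867 (0.832 to 0.904).

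KDELR2 (ENSG00000136240, chr7:6445953-6484242, minus strand) was at 86.8 FPKM in the HepG2 control and 54.3 FPKM in treated HepG2. In PLC/PRF/5 it was at 81.0 FPKM in the control and 57.7 FPKM in the treated library. Again both treated libraries lay below both controls. The ratios were 0.626 (0.601 to 0.651) and 0.712 (0.685 to 0.741), and 0.722 (0.694 to 0.751) and 0.795 (0.764 to 0.827) with median-of-ratios scaling. KDELR2 shares 9.42% of its exon bases with DAGLB on the same strand. Of the genes measured in HepG2, 4.24% had a lower log2 ratio than KDELR2, and in PLC/PRF/5 8.16% did.

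KDELR3 (ENSG00000100196, chr22:38468062-38483447, plus strand), the scarcest receptor, showed the lowest ratio among the members in each line. It was at 9.75 FPKM in the HepG2 control and 3.70 FPKM in treated HepG2, from 312 and 144 fragments. In PLC/PRF/5 it was at 7.14 FPKM in the control and 4.59 FPKM in the treated library, from 292 and 149 fragments. Here too both treated libraries lay below both controls. The ratios were 0.379 (0.309 to 0.464) in HepG2 and 0.643 (0.524 to 0.785) in PLC/PRF/5, and 0.437 (0.357 to 0.535) and 0.717 (0.585 to 0.877) with median-of-ratios scaling. A log2 ratio lower than that of KDELR3 was found for 1.20% of the genes measured in HepG2 and for 6.11% in PLC/PRF/5. Of the 11062 genes measured in both lines, 53 (0.479%), KDELR3 included, were at least as low as KDELR3 in both, and 120 (1.08%) were at least as low as KDELR2.

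Summed over the 3 genes, receptor transcript went from 218 to 153 FPKM in HepG2, a ratio of 0.700 (0.680 to 0.721), and from 212 to 159 FPKM in PLC/PRF/5, a ratio of 0.748 (0.726 to 0.770). The 7 bZIP factors went from 67.5 to 62.7 FPKM in HepG2, a ratio of 0.928 (0.892 to 0.966), and from 107 to 92.5 FPKM in PLC/PRF/5, a ratio of 0.868 (0.834 to 0.904). The intervals of sums use a normal approximation on the log scale. In each line the receptor interval lay below that of the factors, also without CREB3. Sums are led by the most abundant genes, here KDELR1 and KDELR2 on the one side and CREB3L2 or CREB3 on the other.

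**Figure D2:**
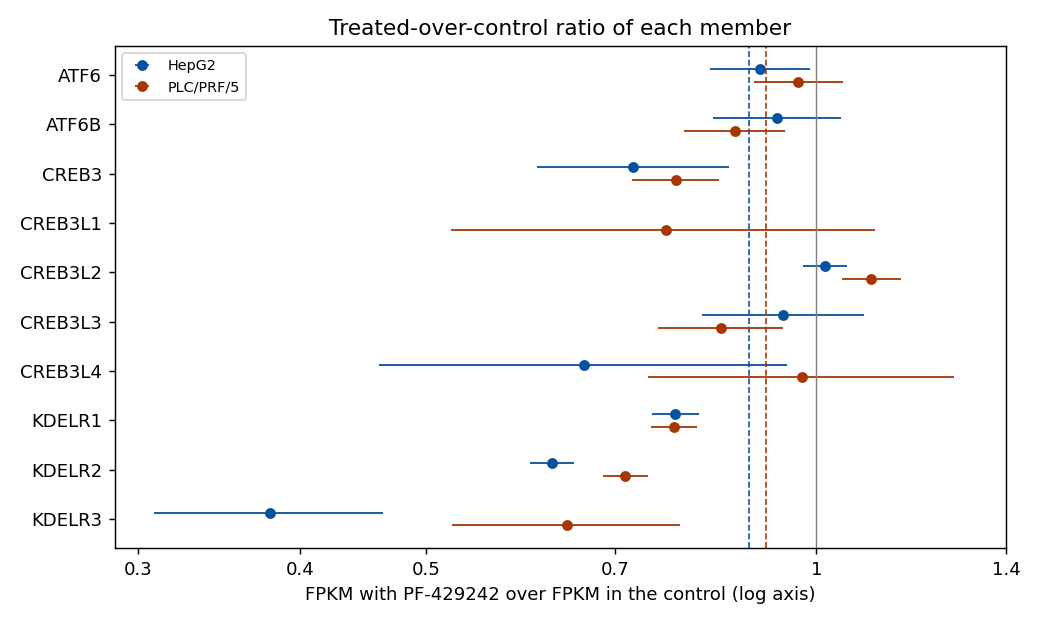
Ratio of FPKM with PF-429242 to FPKM in the control for each member (log axis) with 95% counting intervals, in HepG2 and PLC/PRF/5; dashed lines mark the median log2 ratio of (FPKM + 1) of all measured genes of each line, as a ratio. The 3 receptors and CREB3 lie left of both dashed lines in HepG2 and in PLC/PRF/5. CREB3L4 does so in HepG2 alone, and ATF6B, CREB3L3 and CREB3L1 in PLC/PRF/5 alone. CREB3L2 lies above 1, and KDELR3 reaches 0.379 in HepG2.

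Counted over the 9 members with at least 1 FPKM in either library of a line, 1 member (KDELR3) was lower by 2-fold or more on the scale of log2(FPKM + 1) in HepG2, where 2.14% of the 12347 measured genes were. In PLC/PRF/5 0 of 9 were, against 1.82% of 13144 genes. The ratio's counting interval lay below 1 for 6 of 9 members in each line, but for 50.4% of all measured genes in HepG2 and 41.4% in PLC/PRF/5, so a large share of all genes met the same rule. With median-of-ratios scaling 4 of 9 members were below 1 in each line, against 17.8% of genes in HepG2 and 21% in PLC/PRF/5, and in both lines they were CREB3, KDELR1, KDELR2 and KDELR3. The median log2 ratio over the 9 members was -0.33 in HepG2, where that of all measured genes was -0.17, and -0.23 in PLC/PRF/5, where it was -0.13. With median-of-ratios scaling the receptors' own median was -0.46 and -0.33, and that of the 6 measured bZIP factors was 0.07 and 0.02.

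A fit of 1 treatment effect over both lines, with the cell line as a block, called 0 of 9 members and 0 of 12838 genes (0%) at an adjusted p under 0.05 (limma, Benjamini-Hochberg). The lines are its only replicates and leave 1 residual degree of freedom. At an unadjusted p under 0.05 it held 2488 genes (19.4%) and 4 of the 9 members, again CREB3, KDELR1, KDELR2 and KDELR3. Limma-voom on the recovered fragments also called 0 genes. The fitted log2 changes in limma were -0.39 ± 0.07 (SE) for CREB3, -0.36 ± 0.07 for KDELR1, -0.57 ± 0.08 for KDELR2 and -0.87 ± 0.18 for KDELR3, each with an adjusted p of 0.193. For the other 5 members the limma adjusted p ran up to 0.586.

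The lines differed in the size of the response for some members. KDELR3 was lower in HepG2 by a ratio of ratios (HepG2 over PLC/PRF/5) of 0.590 (0.446 to 0.780), and KDELR2 by 0.878 (0.831 to 0.929). For KDELR1 it was 1.00 (0.945 to 1.06). Among the bZIP factors the interval excluded 1 only for CREB3L2, at 0.921 (0.863 to 0.984), and with median-of-ratios scaling it included 1, at 0.952 (0.891 to 1.02). Under that scaling KDELR3 and KDELR2 stayed below 1, at 0.610 (0.461 to 0.806) and 0.908 (0.858 to 0.960). For CREB3 the ratio of ratios on the deposited scale was 0.926 (0.771 to 1.11). CREB3L1 could not be compared. These intervals hold counting error alone, and with 1 library a group the difference between the lines has no test.

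**Figure D3:**
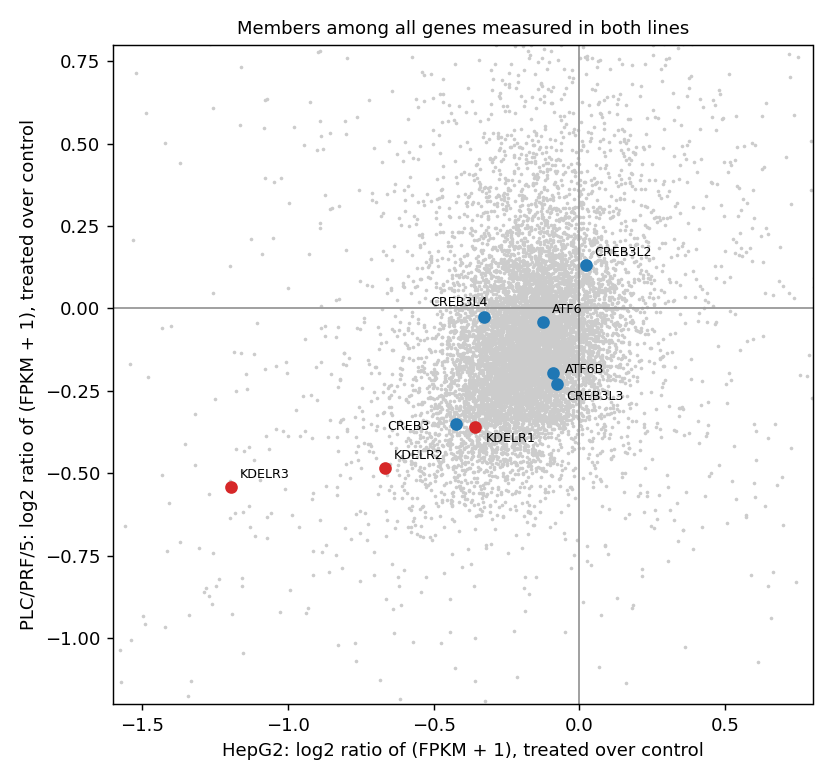
Log2 ratio of (FPKM + 1), treated over control, in HepG2 (x axis) and PLC/PRF/5 (y axis) for the genes measured in both lines (grey), with the KDEL receptors in red and the measured bZIP factors in blue; 356 genes lie outside the plotted range. Among the members, KDELR2 and KDELR3 lie farthest to the lower left, CREB3 lies beside KDELR1, and CREB3L2 lies farthest to the upper right.

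Without treatment, the summed bZIP factors in HepG2 were at 0.634 (0.609 to 0.659) of those in PLC/PRF/5, a gap that rested on CREB3. Without CREB3 the other 6 factors summed to 56.7 FPKM in HepG2 and 57.4 FPKM in PLC/PRF/5, a ratio of 0.988 (0.950 to 1.03), and the receptors were at 1.03 (1.00 to 1.06). CREB3 in the HepG2 control was 0.221 (0.195 to 0.250) of its level in the PLC/PRF/5 control, and only 3.17% of measured genes had a lower log2 ratio. It was the single member of 9 to differ by 2-fold or more, where 23.1% of the 13861 measured genes did. CREB3L2 went the other way, at 1.90 (1.82 to 1.99). ATF6B was at 0.608 (0.550 to 0.672), CREB3L3 at 0.574 (0.506 to 0.651), ATF6 at 0.830 (0.764 to 0.901) and CREB3L4 at 0.719 (0.531 to 0.968). Among the receptors KDELR1 was at 0.979 (0.942 to 1.02), KDELR2 at 1.07 (1.04 to 1.11) and KDELR3 at 1.37 (1.16 to 1.61). The interval excluded 1 for 8 of 9 members, all but KDELR1, and for 75.2% of all measured genes. These values share the controls with the treated-over-control ratios above.

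The profiles of CREB3 and KDELR3 spanned at least 1 log2 unit over the 4 libraries, and the genes nearest to them were sought among 12838 genes by the distance between centred profiles of log2(FPKM + 1). NT5C2, a cytosolic nucleotidase, lay nearest to CREB3 at a distance of 0.10, with 5.95, 4.49, 27.4 and 22.5 FPKM in the order HepG2 control, HepG2 treated, PLC/PRF/5 control, PLC/PRF/5 treated. SELENOM, a selenoprotein of the ER, and ELF4, an ETS-type transcription factor, followed at 0.10 and 0.14. SELENOM was at only 0.957 FPKM in the HepG2 control and 0.324 FPKM in treated HepG2, from 51 and 21 fragments. At such levels the pseudocount of 1 FPKM shrinks differences, so its closeness rests partly on it. Nearest to KDELR3 was MIR1244-2 at 0.14, counted from 62 to 109 fragments a library. CLCN6, a chloride and proton exchanger of late endosomes, followed at 0.16. It had 7.23, 2.75, 4.83 and 2.85 FPKM in the same order. ENSG00000248126 came next at 0.17, counted from 7 to 15 fragments a library. Likeness over 4 libraries is a description of these profiles.

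The protease that PF-429242 inhibits had nearly level transcript on the deposited scale in treated and control libraries. MBTPS1, which encodes site-1 protease, was at 13.0 FPKM in the HepG2 control and 13.4 FPKM in the treated library, and at 9.70 and 9.38 FPKM in PLC/PRF/5, with ratios of 1.03 (0.978 to 1.09) and 0.967 (0.906 to 1.03). With median-of-ratios scaling both intervals lay above 1, at 1.19 (1.13 to 1.26) and 1.08 (1.01 to 1.15). MBTPS2, encoding site-2 protease, was at 3.79 and 3.09 FPKM in HepG2 (ratio 0.814, 0.723 to 0.917) and at 13.8 and 9.31 FPKM in PLC/PRF/5 (ratio 0.677, 0.634 to 0.722). SPRING1, a cofactor of site-1 protease, had ratios of 0.860 and 1.02, and SCAP, the sterol-sensing escort of the SREBP factors, had ratios of 0.847 and 0.984.

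Of the other substrates of site-1 protease, SREBF1 and SREBF2 had lower ratios than any bZIP member. SREBF2, the precursor of the cholesterol regulator SREBP-2, went from 20.7 to 3.32 FPKM in HepG2, a ratio of 0.160 (0.145 to 0.176), and from 17.4 to 6.34 FPKM in PLC/PRF/5, a ratio of 0.366 (0.338 to 0.395). SREBF1, whose product governs fatty acid synthesis, had ratios of 0.302 (0.265 to 0.344) and 0.466 (0.420 to 0.516). GNPTAB, the Golgi enzyme that starts the mannose-6-phosphate tag and is matured by site-1 protease, had ratios of 0.745 (0.686 to 0.809) and 0.713 (0.658 to 0.771). Of these 7 genes, 6 had a log2 ratio below 0 in each line, with a median of -0.23 in HepG2 and -0.43 in PLC/PRF/5. A log2 ratio below 0 was common, found for 82.4% of all measured genes in HepG2 and 70.9% in PLC/PRF/5, so counts below 0 here and in the lists that follow are read against those shares, and the medians against -0.17 and -0.13.

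Of 15 ATF6 target genes, 13 had a log2 ratio below 0 in each line, near the share of all genes in HepG2. Their median was -0.49 in HepG2 and -0.29 in PLC/PRF/5, or -0.28 and -0.14 with median-of-ratios scaling. CALR, the ER lectin chaperone calreticulin, went from 460 to 200 FPKM in HepG2, a ratio of 0.434 (0.424 to 0.444), and from 395 to 275 FPKM in PLC/PRF/5, a ratio of 0.695 (0.680 to 0.710). HSP90B1, the chaperone GRP94, had ratios of 0.652 (0.639 to 0.665) and 0.789 (0.776 to 0.802). DDIT3, the stress factor CHOP, which the PERK branch also drives, was higher, at 1.44 (1.13 to 1.84) and 1.85 (1.61 to 2.14). Limma called 0 of the 15 in the shared fit.

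The DNA-binding partners of ATF6 lay close to the median gene. All 5 (NFYA, NFYB, NFYC, YY1 and GTF2I) had a log2 ratio below 0 in each line, with medians of -0.17 and -0.16, or 0.02 and -0.02 with median-of-ratios scaling. NFYB, a subunit of the factor that binds CCAAT, had the lowest mean, with ratios of 0.745 (0.647 to 0.857) and 0.729 (0.656 to 0.809). NFYA had ratios of 0.880 and 0.833, and GTF2I 0.843 and 0.915.

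Targets of the CREB3 family were mixed, with a smaller share below 0 than all genes in HepG2 and about the same share in PLC/PRF/5. In HepG2, 6 of 10 measured genes had a log2 ratio below 0, with a median of -0.37, and in PLC/PRF/5 5 of 7 did, with a median of -0.09. With median-of-ratios scaling the medians were -0.17 and 0.05. Under that scaling the ratio's interval lay below 1 for 6 genes and above 1 for 3 in HepG2. In PLC/PRF/5 it lay below 1 for 0 of the 7, SEC23A included, and above 1 for 2. HAMP, which encodes the iron hormone hepcidin and is a CREB3L3 target, was higher in both lines, going from 1.55 to 2.85 FPKM in HepG2, a ratio of 1.84 (1.39 to 2.46), and from 1.68 to 4.57 FPKM in PLC/PRF/5, a ratio of 2.71 (2.14 to 3.46). CIDEC, a lipid droplet protein, went from 1.68 to 0.740 FPKM in HepG2, a ratio of 0.441 (0.271 to 0.705), and was under 1 FPKM in PLC/PRF/5. SEC23A, a COPII coat gene and the known target of CREB3L2, had ratios of 0.710 (0.693 to 0.727) and 0.870 (0.838 to 0.904), while CREB3L2 itself stood at 1.02 and 1.10.

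Proteins that the receptors retrieve were found by the ending of their coding sequence. A KDEL end was found for 12 genes, of which 11 in HepG2 and 12 in PLC/PRF/5 were measured. Their log2 ratio was below 0 for 9 and 11 of them, in HepG2 about the share of all genes, with medians of -0.30 and -0.35. With median-of-ratios scaling the medians were -0.11 and -0.20. One of the 12, SUGP2, is a nuclear RNA-binding protein and was left out of sums, a choice made after its name was seen. The remaining 11 summed to 1467 FPKM in the HepG2 control and 891 FPKM in the treated library, a ratio of 0.607 (0.601 to 0.613), and to 1444 and 1131 FPKM in PLC/PRF/5, a ratio of 0.783 (0.776 to 0.790). These sums too are led by abundant genes, among them CALR and HSPA5. KDEL-ended transcript per receptor transcript was 6.72 without and 5.83 with treatment in HepG2, and 6.80 without and 7.12 with it in PLC/PRF/5. This ratio of transcripts, which leaves out proteins ending in close variants of KDEL, was thus lower in the treated library of HepG2. In that of PLC/PRF/5 it was slightly higher, at 1.05 of the control, and the controls were close. No interval was computed for it, and protein was not measured.

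CALR and HSP90B1, described above, and HSPA5 had the largest mean log2 ratio in size among the KDEL-ended genes. HSPA5, the major ER chaperone BiP, went from 365 to 222 FPKM in HepG2, a ratio of 0.608 (0.597 to 0.620), and from 262 to 229 FPKM in PLC/PRF/5, a ratio of 0.872 (0.854 to 0.890). These 3 genes are also the ones of the KDEL-ended set whose promoters held the full ERSE printed above, and all are on the list of ATF6 targets. The ranking is by the mean of the lines and did not hold in PLC/PRF/5. There the log2 ratio was -0.20 for HSPA5, -0.34 for HSP90B1 and -0.52 for CALR. POGLUT2 and PDIA6, which held no full ERSE, were at -0.55 and -0.41 in that line. Over all genes with a full ERSE, the median log2 ratio in HepG2 was -0.17 for 13 measured genes, 9 of them below 0, against -0.18 for genes without one. The same median in PLC/PRF/5 was -0.25 for 14 genes, 11 of them below 0, against -0.13. Proteins ending in another letter and then DEL or EEL came from 66 genes, many of them not ER proteins. Of the 47 measured in each line, 43 and 39 had a log2 ratio below 0, with medians of -0.20 and -0.21. Of this set FKBP7, an ER prolyl isomerase, had ratios of 0.628 (0.473 to 0.833) and 0.586 (0.465 to 0.735). TSPAN12, a membrane tetraspanin, had a ratio of 0.511 (0.424 to 0.614) in PLC/PRF/5 and was under 1 FPKM in HepG2. COLGALT2, a collagen galactosyltransferase, was level in HepG2 at 1.03 (0.928 to 1.15) and higher in PLC/PRF/5 at 2.49 (2.15 to 2.89).

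The coat and cargo genes of the route that carries the receptors had medians below that of all genes. Of 14 genes of COPI traffic, 14 in HepG2 and 12 in PLC/PRF/5 had a log2 ratio below 0, with medians of -0.37 and -0.27, or -0.17 and -0.12 with median-of-ratios scaling. COPB1 and COPB2, subunits of the coat, had ratios of 0.685 (0.647 to 0.726) and 0.708 (0.676 to 0.743) in HepG2, and 0.741 (0.706 to 0.779) and 0.798 (0.758 to 0.840) in PLC/PRF/5. TMED9, a cargo receptor of these vesicles, had ratios of 0.697 and 0.779. None of these genes was lower by 2-fold, and limma called 0 of the 14 in the shared fit.

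Genes of Golgi structure and resident enzymes gave a log2 ratio below 0 for 10 of 10 in each line, with medians of -0.33 and -0.17. With median-of-ratios scaling these medians became -0.16 and -0.01. GOLM1, a Golgi membrane protein raised in liver disease, had ratios of 0.632 (0.477 to 0.834) and 0.576 (0.522 to 0.634). TGOLN2, a trans-Golgi marker, had ratios of 0.820 and 0.762, and GOLGA2, which encodes the matrix protein GM130, 0.710 and 0.895.

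A list of stress sensors and related genes (ERN1, EIF2AK3, HSPA13, TFE3 and TFEB) and the other bZIP factors had medians closer to 0 than the receptors. The 5 genes of the first list had a median log2 ratio of -0.08 in HepG2. The 4 measured in PLC/PRF/5, all but TFEB, had one of -0.05. EIF2AK3, encoding the sensor PERK, had ratios of 0.594 (0.529 to 0.666) and 0.773 (0.693 to 0.862), whereas ERN1, encoding IRE1, was at 1.30 (1.11 to 1.52) and 1.17 (1.07 to 1.27). HSPA13, an HSP70-type ER protein, was at 1.37 (1.26 to 1.49) and 1.00 (0.950 to 1.05). Among 18 bZIP factors that site-1 protease does not cut, 12 in HepG2 and 11 in PLC/PRF/5 had a log2 ratio below 0, smaller shares than among all genes, with medians of -0.12 and -0.07, near those of the cut factors at -0.11 and -0.12. CEBPB, a liver-enriched factor, was higher at 1.48 (1.34 to 1.64) and 1.42 (1.31 to 1.54), and ATF3, a stress-induced factor, was level in HepG2 at 1.00 and higher in PLC/PRF/5 at 1.96 (1.65 to 2.32). CREBZF had ratios of 0.787 and 0.746. Limma called 0 genes of any of these lists in the shared fit.

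**Figure D4:**
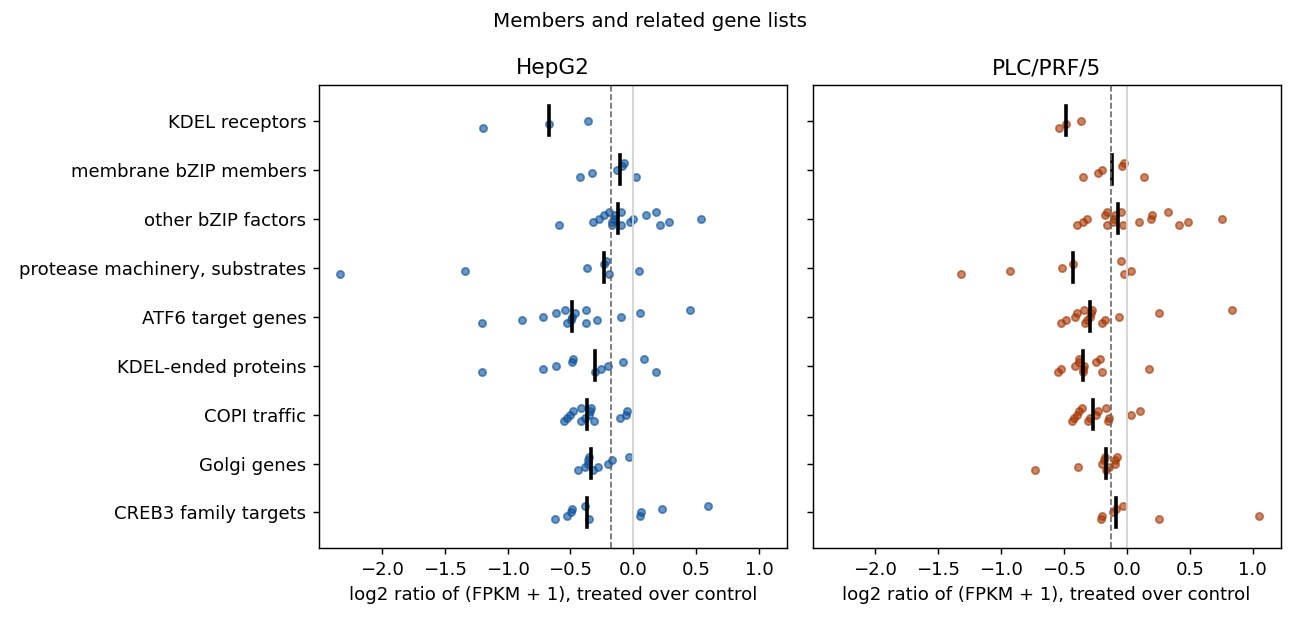
Log2 ratio of (FPKM + 1), treated over control, of every measured gene of the members and of related lists, in HepG2 (left) and PLC/PRF/5 (right); black bars are list medians and the dashed line is the median of all measured genes. The receptors' medians, -0.67 and -0.48, are the lowest shown in both lines, and the median of the membrane bZIP members lies near the dashed line, with CREB3 below it at -0.42 and -0.35.

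The mitochondrial share moved with treatment in both lines, and the RRP genes did in PLC/PRF/5, beside all of these values. With totals over nuclear genes alone the log2 ratios of the receptors were -0.16, -0.47 and -1.06 in HepG2 and -0.23, -0.35 and -0.45 in PLC/PRF/5 for KDELR1, KDELR2 and KDELR3, and those of CREB3 were -0.25 and -0.22. The hepatocyte markers also moved, their summed level going from 9334 to 8062 FPKM in HepG2 and from 2244 to 2976 FPKM in PLC/PRF/5. Of the 4 blood markers (PTPRC, CD68, HBB and LYZ) only 2, CD68 and LYZ, were among the deposited genes. LYZ alone reached 1 FPKM, at 179 to 504 FPKM in the 4 libraries. Of the 3 endothelial markers only PECAM1 did, at up to 1.36 FPKM. The part of these shifts in the members' ratios was not tested.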

How the data were processed

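The submitters' processing notes name TopHat2 and GRCh38; no source used here names the counting program or annotation. The authors deposited FPKM values for 32479 Ensembl genes in 4 libraries. Symbols and positions were taken from GENCODE 29 (GRCh38). Whole fragments were recovered from the FPKM: 24452 genes (75.3%) were whole within 0.001 with GENCODE 29 exon lengths and the rest from ratios between libraries. Of the members, only ATF6B and CREB3L1 were whole with GENCODE 29 lengths. Shares of exon bases that overlap other genes are those of GENCODE 29 models. For 1 kb of gene, 3 fragments correspond to 0.140 to 0.179 FPKM.

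A gene counted as measured with at least 1 FPKM in either library. Log2 ratios used a pseudocount of 1 FPKM, which understates low genes, and a 2-fold threshold with no p-value. The shared effect came from limma 3.58.1 (R 4.3.3, trend, Benjamini-Hochberg) on the 12838 genes that reached 1 FPKM in 2 or more libraries. Its code was also run on simulated data with independent normal noise. Those data lack the shifts between these libraries, so they do not show how the fit performs here.

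All members, every gene of the protease list and the 3 genes with the largest mean log2 ratio of each other list were named. KDEL-ended genes were found by translating GENCODE 29 transcripts (19893 genes). Members and lists were chosen with earlier results of these data known. Counts of intervals below 1, their median-of-ratios version, the promoter search, the counts of genes as low in both lines and sums without SUGP2 or CREB3 were added after values were seen. The alternatives were other pseudocounts, filters, thresholds, scalings and limma settings.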

Additional observations from a re-analysis of the deposited data

How the results depend on the processing

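With 1 library a group, no library could be left out. The shared fit pairs treated and control libraries by cell line, and without that block it also called 0 members and 0 genes. Over 150 log2 ratios of single members under other pseudocounts and scalings, 99 moved by less than their counting interval and 51 by more, 22 of these on the TPM scale; 0 members past 2-fold changed sign. KDELR3 in HepG2 was not past 2-fold with a pseudocount of 5, which left 0 members, and at a 1.5-fold threshold there were 2. The HepG2 median of the members (-0.33) became -0.12 with a pseudocount of 5, -0.52 on the TPM scale, -0.15 with median-of-ratios scaling and -0.16 with totals over nuclear genes. The PLC/PRF/5 median (-0.23) became -0.54 on the TPM scale and -0.080 with median-of-ratios scaling. Between the controls, 2 members differed by 2-fold on the TPM scale (CREB3 and CREB3L2), 2 with nuclear totals (CREB3 and CREB3L1) and 4 at 1.5-fold, and the median (-0.24) became -0.046 on the TPM scale. The limma fit called 7 members and 6027 genes (5981 of them lower) on the TPM scale, which moved all treated log2 ratios down by 0.33 in HepG2 and 0.34 in PLC/PRF/5, and 0 under each other setting run. Without CREB3 the ratio of the summed bZIP factors became 0.968 in HepG2, 0.944 in PLC/PRF/5 and 0.988 between the controls, and with median-of-ratios scaling the ratio of ratios of CREB3L2 became 0.952, with an interval that includes 1; both were added after the data were seen. The cause was not tested. Members under 150 fragments (CREB3L1, CREB3L4 and treated KDELR3) are limited by depth.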
